A study of Homo sapiens with 8 samples.

Results

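Serine synthesis and folate one-carbon metabolism were followed through 9 enzyme transcripts in HGC27, an established human gastric carcinoma line, of which the labels say that it has no p53. The members were taken by gene symbol from the deposited count table, 9 of 25435 symbols, and all 9 passed the filter on low counts. PHGDH, PSAT1 and PSPH make serine. SHMT1 and MTHFD1 form the cytosolic arm of the folate cycle. SHMT2, MTHFD2, MTHFD1L and ALDH1L2 form the mitochondrial arm. The cells had been made to overexpress GFP, the control, or p53 carrying R175H, R248Q or R273H, and were grown in alpha-MEM. All 3 substitutions lie in the DNA-binding domain: R175H disturbs its fold, and R248Q and R273H replace residues that contact DNA. Each of the 4 groups had 2 mRNA sequencing libraries, 8 in all. The labels do not say whether replicates came from separate cultures or separate transductions, so the p-values measure only the spread between these libraries. The promoter that drove each protein was not given in the sources used here.

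Serine is made from a glycolytic intermediate in successive steps by PHGDH, PSAT1 and PSPH. Serine hydroxymethyltransferases then split serine into glycine and a one-carbon unit carried on tetrahydrofolate, with SHMT2 in the mitochondrion and SHMT1 in the cytosol. In proliferating cells the mitochondrial enzymes usually oxidise the unit to formate, which leaves the organelle and is taken up again by the cytosolic enzyme MTHFD1 for purine, thymidylate and methionine synthesis. PHGDH, PSAT1, SHMT2 and MTHFD2 are known targets of ATF4, the transcription factor of the amino acid response.

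Total counts ran from 6800463 to 11788035 per library, and the members had between 456 and 10189 counts each. The spread between replicates was widest for GFP, with a chi-square per degree of freedom of 5.72 over genes against 1.21 to 1.60 for the mutants. Values from fits with a GFP library left out are therefore given for members whose calls changed, and for some of the surrounding genes. Such a fit takes its spread between replicates from the mutants alone, so calls gained in it are not read as changes. Of 12 gastric epithelium markers in the table, including EPCAM, CDH1 and TFF1, 7 had no count and the rest had at most 3 counts in any library, so the epithelium the line came from did not show in its markers. The 7 mesenchymal markers summed to between 9010 and 10000 CPM, and single ones moved with the mutants. With R175H VIM rose by 0.20 (log2, adjusted p = 0.0089) and THY1 fell by 0.59 (adjusted p = 4.7e-04). COL1A1 rose by 0.37 with R248Q (adjusted p = 4.3e-04) and 0.35 with R273H (adjusted p = 0.0038), THY1 fell by 0.30 with R248Q (adjusted p = 0.036), and PDGFRB rose by 0.76 with R273H (adjusted p = 0.036). Their part in the results below was not tested. Blood markers summed to 12.2 to 16.7 CPM and endothelial markers to 0.256 to 1.55 CPM. Levels below are TMM-normalised CPM, counts scaled to library size. Changes are log2 fold changes with a standard error (SE) from edgeR's quasi-likelihood test, and "rose" or "fell" is used only below a Benjamini-Hochberg adjusted p of 0.05 over 13213 genes. These are bulk values, so a change in every cell cannot be told apart from a change in the share of cells that hold the transcript.

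The stretch of 250 bases before the annotated start was read for members in RefSeq's promoter table (GRCh38.p14), which matched 6 of 9. Those of PHGDH, PSAT1 and MTHFD2, which rose with R175H, are shown beside those of MTHFD1 and MTHFD1L, which did not rise. The stretch of SHMT1, which also did not rise, is not shown. Capitals mark the 2 motifs searched on both strands: TGATGNAA, the core of the amino acid response element bound by ATF4 with C/EBP partners, and CACGTG, the E-box bound by MYC.
PHGDH, chr1:119711684-119711933, + strand: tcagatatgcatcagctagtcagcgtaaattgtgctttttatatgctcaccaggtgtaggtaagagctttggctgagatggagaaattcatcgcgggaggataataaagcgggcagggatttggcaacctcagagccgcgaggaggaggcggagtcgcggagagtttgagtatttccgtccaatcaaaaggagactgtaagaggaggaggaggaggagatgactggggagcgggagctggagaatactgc
PSAT1, chr9:78296875-78297124, + strand: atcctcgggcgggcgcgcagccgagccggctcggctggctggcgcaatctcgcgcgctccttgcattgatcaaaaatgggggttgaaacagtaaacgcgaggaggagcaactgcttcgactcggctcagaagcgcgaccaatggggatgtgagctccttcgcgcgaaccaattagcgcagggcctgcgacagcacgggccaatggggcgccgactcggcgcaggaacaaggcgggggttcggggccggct
MTHFD2, chr2:74198365-74198614, + strand: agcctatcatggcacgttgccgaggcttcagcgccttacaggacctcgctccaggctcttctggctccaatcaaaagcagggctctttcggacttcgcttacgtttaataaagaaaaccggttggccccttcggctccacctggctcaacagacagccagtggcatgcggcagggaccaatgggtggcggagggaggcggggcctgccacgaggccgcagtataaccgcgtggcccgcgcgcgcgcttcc
MTHFD1, chr14:64388103-64388352, + strand: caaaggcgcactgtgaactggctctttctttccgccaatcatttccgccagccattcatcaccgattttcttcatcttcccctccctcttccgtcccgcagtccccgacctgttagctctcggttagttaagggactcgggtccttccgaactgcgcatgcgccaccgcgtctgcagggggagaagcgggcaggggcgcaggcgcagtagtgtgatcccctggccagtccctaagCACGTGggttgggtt
MTHFD1L, chr6:150866236-150866485, + strand: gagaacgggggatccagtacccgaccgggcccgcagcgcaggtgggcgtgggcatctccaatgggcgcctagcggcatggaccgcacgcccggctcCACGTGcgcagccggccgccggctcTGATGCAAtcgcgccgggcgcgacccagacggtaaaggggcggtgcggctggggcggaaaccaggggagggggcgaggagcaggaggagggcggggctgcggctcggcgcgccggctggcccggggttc

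MTHFD1L held both motifs, TGATGCAA at bases -129 to -122 from the start and CACGTG at bases -154 to -149. MTHFD1 held CACGTG at bases -15 to -10. Neither motif was in the windows of PHGDH, PSAT1, MTHFD2 or SHMT1. Counted over 300 bases around each start (250 before to 50 after), TGATGNAA was in 3.62% and CACGTG in 7.26% of 35116 promoters in the table. MTHFD1L has 4 annotated starts, and 3 of their windows overlap and share these matches. The matches describe these windows only: both members with a match were among those whose transcript did not rise with any mutant. A window without a match lacks only these letters. PSPH, SHMT2 and ALDH1L2 had no entry.

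R175H was the mutant with the most members changed. PHGDH, PSAT1, SHMT2, MTHFD2 and ALDH1L2 rose against GFP, 5 of 9, where 6.39% of all tested genes rose and 11.0% changed in either direction. No member fell, where 4.59% of tested genes fell. The median change of the 9 members was 0.30, against 0.01 over all tested genes. By compartment, 2 of 3 serine synthesis genes, 0 of 2 cytosolic genes and 3 of 4 mitochondrial genes rose. For the cytosolic pair the count of 0 was also 0 with DESeq2 and limma-voom and at an unadjusted p below 0.05 by edgeR. With 6.39% of tested genes rising, 0 of 2 would match the background, and nothing is read from that 0. With R248Q only ALDH1L2 rose, 1 of 9, where 4.88% of tested genes rose. With R273H PSAT1 and ALDH1L2 rose, 2 of 9, where 0.757% of tested genes rose. Over the alternative fits, and with single libraries left out, these counts ran from 4 to 5 for R175H, 1 to 4 for R248Q and 0 to 5 for R273H. The 3 comparisons share the same 2 GFP libraries and are not independent of each other.

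**Figure D1:**
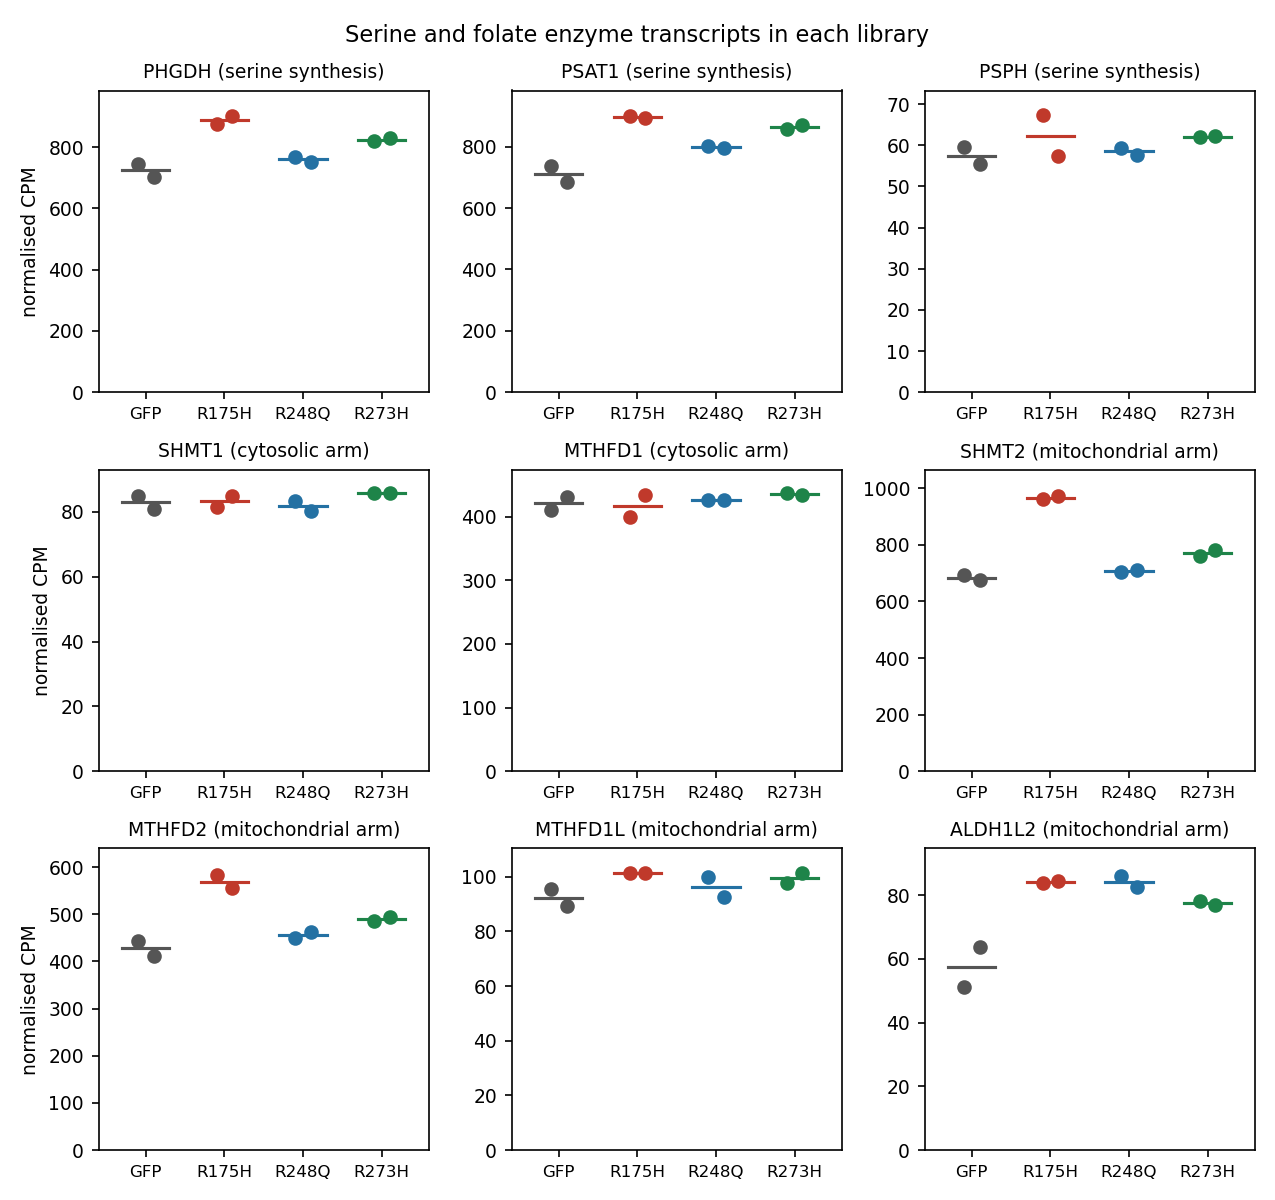
Normalised CPM (vertical axis, from 0) of each enzyme in every library, with points for libraries and bars for the mean of 2. The R175H libraries of SHMT2 sit at 961 and 973 CPM against 676 to 780 CPM in the other 6, while SHMT1 lies between 80.3 and 85.9 CPM in all 8.

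PHGDH, the dehydrogenase that commits the glycolytic intermediate to serine, was read at 747 and 702 CPM with GFP, 877 and 902 CPM with R175H, 769 and 751 CPM with R248Q, and 819 and 829 CPM with R273H. Every mutant library lay above both GFP libraries, and the R175H libraries were the highest. The change with R175H was 0.30 ± 0.05 (SE, adjusted p = 0.0016), or 22.8%, and the adjusted p was 0.064 with only the GFP and R175H libraries in the fit. It was 0.07 ± 0.05 with R248Q (95% interval -0.04 to 0.18, adjusted p = 0.45) and 0.19 ± 0.05 with R273H (0.08 to 0.29, adjusted p = 0.11). The R273H change was called with no filter on low counts (0.19, adjusted p = 0.016). It was also called with a trend against transcript length removed (0.21, adjusted p = 0.0016). PHGDH was lower with R248Q than with R175H (difference -0.23 ± 0.05, adjusted p = 0.013). That call was lost without either R175H library or either R248Q library (adjusted p between 0.071 and 0.22). The PHGDH change with R273H against GFP was 0.23 without GFP replicate 1 and 0.14 without GFP replicate 2. In both of these fits the difference of R273H was -0.11 from R175H and 0.12 from R248Q.

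PSAT1, the aminotransferase of the second step, was read at 738 and 686 CPM with GFP and at 900 and 894 CPM with R175H. It was read at 803 and 796 CPM with R248Q and at 857 and 870 CPM with R273H. The 4 groups did not overlap, and their order was GFP, R248Q, R273H and R175H from low to high. PSAT1 rose with R175H by 0.33 ± 0.05 (SE, adjusted p = 6.4e-04) and with R273H by 0.28 ± 0.05 (adjusted p = 0.013). With R248Q the change was 0.17 ± 0.05 (95% interval 0.06 to 0.28, adjusted p = 0.066). That change was called with scaling by library size alone (0.17, adjusted p = 0.046) and with no filter (0.17, adjusted p = 0.022). It was also called with the length trend removed (0.23, adjusted p = 1.2e-04). The differences of R248Q and R273H from R175H were -0.17 (adjusted p = 0.062) and -0.06 (-0.16 to 0.05, adjusted p = 0.64). The R248Q difference from R175H was called with no filter on low counts (-0.16, adjusted p = 0.031). It was also called with a trend against transcript length removed (-0.13, adjusted p = 0.019) and with only the groups compared (-0.17, adjusted p = 7.6e-05). The R273H call was lost without either R248Q library or either R273H library (adjusted p between 0.063 and 0.26), and with only the GFP and R273H libraries in the fit (adjusted p = 0.22). The PSAT1 change with R248Q against GFP was 0.22 without GFP replicate 1 and 0.12 without GFP replicate 2. In both of these fits R248Q differed from R175H by -0.17, and R273H from R248Q by 0.11.

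PSPH, the phosphatase that releases serine, was the least abundant of the 3 by counts. Its levels were 59.5 and 55.5 CPM with GFP, 67.3 and 57.4 CPM with R175H, 59.3 and 57.7 CPM with R248Q, and 62.0 and 62.2 CPM with R273H. The R175H range took in both R248Q and both R273H libraries and overlapped that of GFP. Its change was 0.11 ± 0.08 with R175H (SE, 95% interval -0.07 to 0.29, adjusted p = 0.45), 0.03 with R248Q (-0.15 to 0.20) and 0.11 with R273H (-0.06 to 0.28). Without R175H replicate 1 the R175H value was -0.002.

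SHMT1, the cytosolic hydroxymethyltransferase, lay between 80.3 and 85.9 CPM in all 8 libraries. It was read at 85.0 and 80.8 CPM with GFP, 81.6 and 85.0 CPM with R175H, 83.4 and 80.3 CPM with R248Q, and 85.8 and 85.9 CPM with R273H. Its change was 0.01 with R175H (SE 0.07, 95% interval -0.14 to 0.15), -0.02 with R248Q (-0.16 to 0.12) and 0.05 with R273H (-0.09 to 0.19). The sign was not stable: with R175H it was -0.03 without GFP replicate 2 and -0.02 without R175H replicate 2, and with R248Q it was 0.02 without GFP replicate 1 and 0.01 without R248Q replicate 2.

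MTHFD1, the cytosolic enzyme whose 3 activities interconvert the folate-bound units, was read at 411 and 432 CPM with GFP and at 400.2 and 434 CPM with R175H. It was read at 426 CPM in both R248Q libraries and at 437 and 434 CPM with R273H. The GFP and R175H libraries interleaved. Its change was -0.01 with R175H (SE 0.06, 95% interval -0.13 to 0.11), 0.02 with R248Q (-0.10 to 0.13) and 0.05 with R273H (-0.07 to 0.17). The R175H value was 0.03 without GFP replicate 2 and 0.04 without R175H replicate 1, and the R248Q value was -0.02 without GFP replicate 1. The intervals of both cytosolic genes end at 0.15 or below with R175H.

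SHMT2, the mitochondrial hydroxymethyltransferase, had the largest difference in CPM of all 9 members. It was read at 692 and 676 CPM with GFP and at 961 and 973 CPM with R175H. With R248Q it was read at 703 and 710 CPM, and with R273H at 759 and 780.4 CPM. The R175H libraries stood above all the others, and the R248Q libraries lay just above those of GFP. SHMT2 rose with R175H by 0.50 ± 0.05 (SE, adjusted p = 6.9e-06), or 41.3%. Its change was 0.05 with R248Q (95% interval -0.06 to 0.15, adjusted p = 0.63) and 0.17 with R273H (0.07 to 0.27, adjusted p = 0.13). The R273H change was called with no filter (0.18, adjusted p = 0.039) and with the length trend removed (0.19, adjusted p = 0.0022). SHMT2 was lower with R248Q than with R175H (difference -0.45 ± 0.05, adjusted p = 2.3e-05) and lower with R273H than with R175H (-0.33 ± 0.05, adjusted p = 8.4e-04). The second of these calls was lost without R273H replicate 1 (adjusted p = 0.061). The SHMT2 change with R273H against GFP was 0.19 without GFP replicate 1 and 0.15 without GFP replicate 2. In both of these fits R273H differed from R248Q by 0.12.

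The 3′ end of SHMT2 overlaps that of NDUFA4L2, a gene on the opposite strand, by 33 bases in GENCODE 29. NDUFA4L2 was read at 50.3 and 41.1 CPM with GFP and at 159 CPM in both R175H libraries, a change of 1.79 ± 0.08 (SE, adjusted p = 1.7e-09). It lay between 42.4 and 44.1 CPM in the R248Q and R273H libraries. The strand setting of the counts was not given in the sources used here, and the part of NDUFA4L2 reads in the SHMT2 count was not tested.

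MTHFD2, the mitochondrial dehydrogenase and cyclohydrolase, was read at 444 and 411 CPM with GFP and at 583 and 555 CPM with R175H. With R248Q it was read at 450 and 462 CPM, and with R273H at 485 and 494 CPM. Every mutant library lay above both GFP libraries, with R175H highest and R273H next. MTHFD2 rose with R175H by 0.41 ± 0.06 (SE, adjusted p = 2.0e-04), or 33.1%. With R248Q the change was 0.09 (95% interval -0.02 to 0.21, adjusted p = 0.34), and with R273H it was 0.20 (0.08 to 0.31, adjusted p = 0.12). The R273H change was called with no filter (0.20, adjusted p = 0.02). MTHFD2 was lower with R248Q than with R175H (difference -0.32 ± 0.06, adjusted p = 0.0019) and lower with R273H than with R175H (-0.22 ± 0.06, adjusted p = 0.037). The first call was lost without R175H replicate 1 or R248Q replicate 1 (adjusted p between 0.05 and 0.084), and the second without any 1 of the 6 mutant libraries (adjusted p between 0.12 and 0.32) and with DESeq2 (adjusted p = 0.062). The MTHFD2 change with R273H against GFP was 0.25 without GFP replicate 1 and 0.14 without GFP replicate 2. Without GFP replicate 1 its change with R248Q was 0.15.

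MTHFD1L, the mitochondrial ligase that releases formate, was read at 95.3 and 89.4 CPM with GFP, 101 CPM in both R175H libraries, 100.0 and 92.6 CPM with R248Q, and 97.5 and 101 CPM with R273H. It was the mitochondrial member that did not pass the test in any comparison. Its change was 0.13 with R175H (SE 0.07, 95% interval -0.01 to 0.28, adjusted p = 0.23), 0.06 with R248Q (-0.08 to 0.20) and 0.11 with R273H (-0.03 to 0.25).

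ALDH1L2, the mitochondrial dehydrogenase that oxidises the formyl unit to carbon dioxide and makes NADPH, rose with all 3 mutants. It was read at 51.2 and 63.8 CPM with GFP, 83.8 and 84.6 CPM with R175H, 85.9 and 82.7 CPM with R248Q, and 78.2 and 77.0 CPM with R273H. All 6 mutant libraries lay above both GFP libraries, and the GFP libraries were farther apart than those of any mutant. The change was 0.55 ± 0.09 with R175H (SE, adjusted p = 8.3e-04), 0.56 ± 0.09 with R248Q (adjusted p = 8.4e-04) and 0.44 ± 0.09 with R273H (adjusted p = 0.021). R248Q and R175H differed by 0.001 (95% interval -0.18 to 0.18), and the difference of R273H from R175H was -0.12 (-0.30 to 0.06). The R273H call was lost without any 1 of the 6 mutant libraries (adjusted p between 0.055 and 0.3), and with only the GFP and R273H libraries in the fit (adjusted p = 0.17).

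The size of the ALDH1L2 change depended on GFP replicate 1. Without that library it was 0.40 with R175H, 0.40 with R248Q and 0.28 with R273H, and without GFP replicate 2 it was 0.72, 0.72 and 0.60. ALDH1L2 has the longest transcript of the members, 7547 bases in GENCODE 29. A smooth trend of expression against transcript length read -0.20 on the log2 scale at that length in GFP replicate 1, -0.01 in GFP replicate 2, and 0.09 and 0.08 with R248Q. At the lengths of the other 8 members the trend stayed between -0.07 and 0.06 in every library. With the trend removed, ALDH1L2 still rose, by 0.43 with R175H (adjusted p = 7.0e-05), 0.36 with R248Q (adjusted p = 7.0e-04) and 0.33 with R273H (adjusted p = 0.0042). The cytosolic counterpart ALDH1L1 had no count in any library, which allows a level of up to 0.254 to 0.441 CPM by library (3 counts, counting error only).

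**Figure D2:**
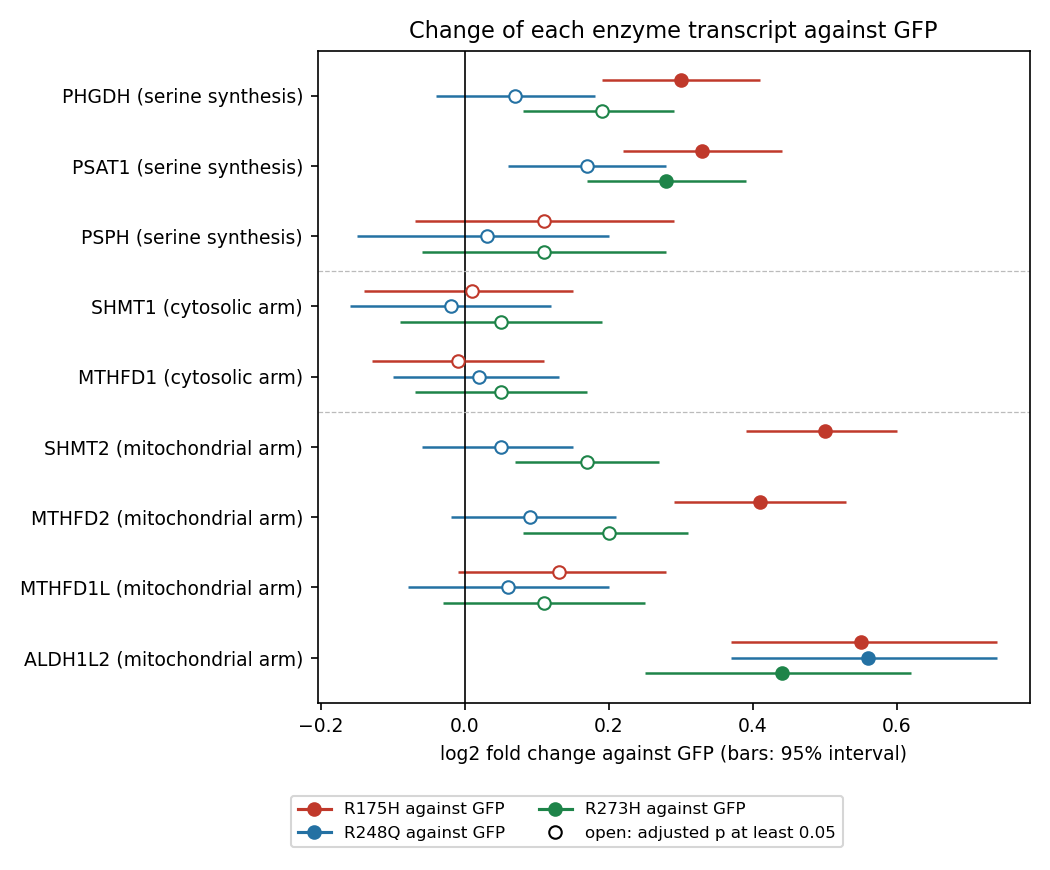
Log2 fold change of each enzyme against GFP (horizontal axis) with 95% intervals from edgeR, by mutant; filled points have an adjusted p below 0.05. The filled points are 5 for R175H, 1 for R248Q and 2 for R273H, and both cytosolic genes lie within 0.05 of 0 for every mutant.

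Direct comparison of the mutants gave 3 members lower with R248Q than with R175H, PHGDH, SHMT2 and MTHFD2, where 3.95% of tested genes were lower. With R273H 2 members were lower than with R175H, SHMT2 and MTHFD2, where 2.22% of tested genes were lower. Between R273H and R248Q, edgeR called 0 of 9 members, where 0.151% of tested genes were called in either direction. In that pair 3 members had an unadjusted p below 0.05, and DESeq2 and limma-voom also called 0. Neither cytosolic gene passed the test between any pair of mutants: the widest of their values were 0.07 for SHMT1 (R273H against R248Q, 95% interval -0.07 to 0.20) and 0.06 for MTHFD1 (R273H against R175H, -0.06 to 0.18).

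Counting libraries instead of calls, 6 of 9 members had both R175H libraries above both GFP libraries, where 26.8% of tested genes did. For R248Q this held for 5 of 9, where 25.0% did. All 9 members had both R273H libraries above both GFP libraries, where 20.1% of tested genes did. For the cytosolic genes the gap was small. The lower R273H library read 85.8 CPM for SHMT1 against 85.0 CPM in the higher GFP library. For MTHFD1 these values were 434.0 and 431.6 CPM. Neither was called, with changes of 0.05 each. The median change of the 9 members was 0.17 with R273H and 0.06 with R248Q, against 0.30 with R175H.

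Levels of different genes were compared per kilobase of transcript, with the length of the principal GENCODE 29 transcript, the longest where several are marked so. PHGDH has 2 such transcripts, of 2585 and 2096 bases, and PSPH has 2, of 2178 and 2131 bases. By the longer ones the order with GFP was PSAT1 at 325 ± 17 CPM per kb (SD, n = 2), PHGDH at 280 ± 12 and SHMT2 at 270 ± 4.5. MTHFD1 followed at 134 ± 4.7, MTHFD2 at 95.9 ± 5.2 and SHMT1 at 33.7 ± 1.2. PSPH at 26.4 ± 1.3, MTHFD1L at 25.6 ± 1.2 and ALDH1L2 at 7.62 ± 1.2 were lowest. The libraries of PHGDH and SHMT2 overlapped with GFP, as did those of PSPH and MTHFD1L, so their order is not resolved. The place of PHGDH depends on the transcript used. With the shorter one it read 346 ± 15 CPM per kb with GFP, which overlapped PSAT1. With R175H it read 344 ± 7 by the longer transcript, below SHMT2 at 381 ± 3.1, and 424 ± 8.6 by the shorter, above both SHMT2 and PSAT1 at 410 ± 1.8. The place of MTHFD2 also depends on its transcript: with its shorter coding transcript of 1865 bases in place of 4456 it read 229 ± 12 CPM per kb with GFP, above MTHFD1. By plain CPM over all libraries PSAT1, PHGDH and SHMT2 were within the top 1.0% of tested genes, and PSPH, the lowest ranked, was within the top 31%.

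**Figure D3:**
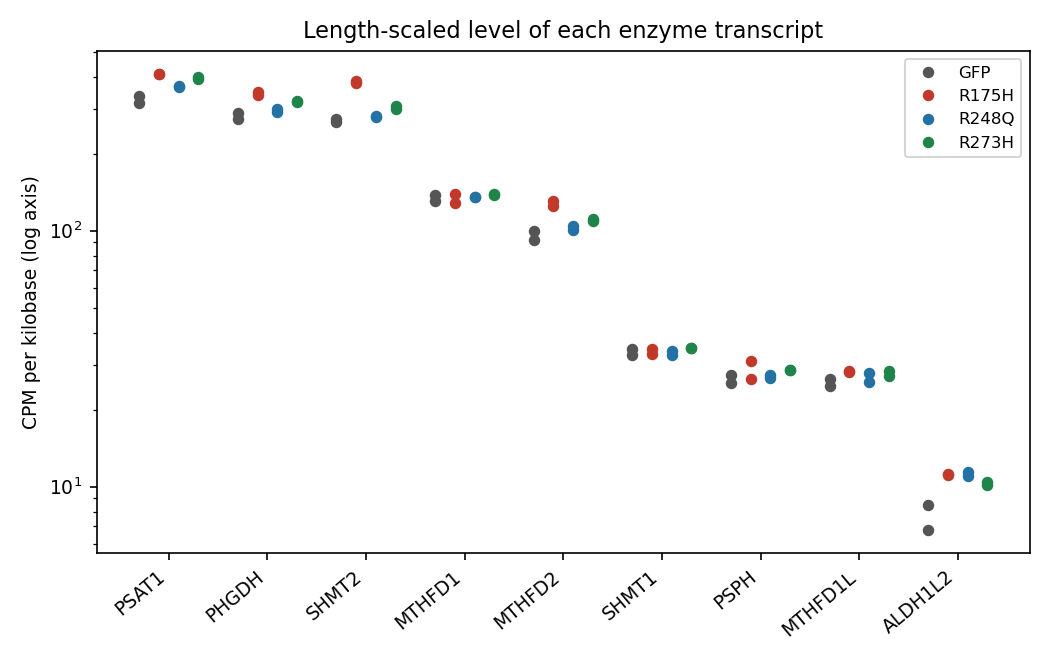
Level of each enzyme in CPM per kilobase of transcript (vertical log axis), one point per library, ordered by the GFP mean, with the longest principal transcript. By that length PSAT1, PHGDH and SHMT2 lie between 267 and 411 CPM per kb, and ALDH1L2 between 6.78 and 11.4 CPM per kb.

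The arms were compared by ratios of paired enzymes within each library, as a description without a test. Per kilobase, SHMT2 exceeded SHMT1 8.02-fold with GFP, 11.3-fold with R175H, 8.38-fold with R248Q and 8.71-fold with R273H. On the log2 scale the ratio was 2.98 and 3.02 in the GFP libraries, 3.52 and 3.47 with R175H, 3.03 and 3.10 with R248Q, and 3.10 and 3.14 with R273H. The R175H ratios were the highest and overlapped with no other group. Relative to GFP the mean ratio differed by 0.49 with R175H, 0.06 with R248Q and 0.12 with R273H.

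MTHFD2 to MTHFD1, on the same log2 scale, was -0.40 and -0.58 with GFP and 0.04 and -0.15 with R175H. It was -0.43 and -0.39 with R248Q and -0.36 and -0.32 with R273H. The R175H libraries again lay above all the others, with a mean difference from GFP of 0.43, against 0.08 for R248Q and 0.15 for R273H. The sign of the ratio itself rests on the MTHFD2 transcript: with the shorter one the GFP mean was 0.77 ± 0.129 (SD, n = 2) in place of -0.49 ± 0.129, while the differences between groups were the same. MTHFD1L to MTHFD1 had means of -2.39 with GFP and -2.24 with R175H, a difference of 0.15, and differed from GFP by 0.04 with R248Q and 0.06 with R273H. ALDH1L2 has no counted cytosolic counterpart, and was set against SHMT1. That ratio was -2.35 and -1.96 with GFP, -1.58 and -1.62 with R175H, -1.57 in both R248Q libraries, and -1.75 and -1.77 with R273H. All mutant libraries lay above those of GFP, and R175H did not stand apart from R248Q: the mean differed from GFP by 0.55 with R175H, 0.58 with R248Q and 0.39 with R273H. With the length trend removed these differences were 0.41, 0.33 and 0.26.

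Summed over their members, the mitochondrial arm exceeded the cytosolic arm 2.37-fold per kilobase with GFP and 3.29-fold with R175H. The ratio was 2.48-fold with R248Q and 2.60-fold with R273H. The log2 ratio was 1.25 ± 0.065 (SD, n = 2) with GFP and 1.72 ± 0.079 with R175H, which did not overlap. R248Q at 1.31 ± 0.015 and R273H at 1.38 ± 0.031 lay close to GFP, with differences of 0.06 and 0.13. Their libraries also lay above those of GFP, but R248Q overlapped GFP with the length trend removed or with the shorter MTHFD2 transcript. SHMT2 was the largest term of the mitochondrial sum, at 270 CPM per kb with GFP and 381 with R175H. MTHFD1 was that of the cytosolic sum, at 134 and 133. MTHFD1L (25.6 and 28.1) and ALDH1L2 (7.62 and 11.2) added little. With the shorter MTHFD2 transcript the ratios were 3.17-fold with GFP and 4.35-fold with R175H, and the log2 difference between them was 0.46 in place of 0.47. As a share of the summed level of all 9 members, the mitochondrial arm made up 33.1% and 33.4% with GFP, 36.8% and 36.4% with R175H, and between 32.6% and 33.2% with the other 2 mutants. The serine synthesis genes kept a share between 52.1% and 54.3% in every library, and the cytosolic arm took 10.8% and 11.5% with R175H against 12.6% to 14.5% elsewhere. With the shorter principal transcripts of PHGDH and PSPH, the mitochondrial share was 35.0% and 34.5% with R175H against 30.9% to 31.7% elsewhere.

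**Figure D4:**
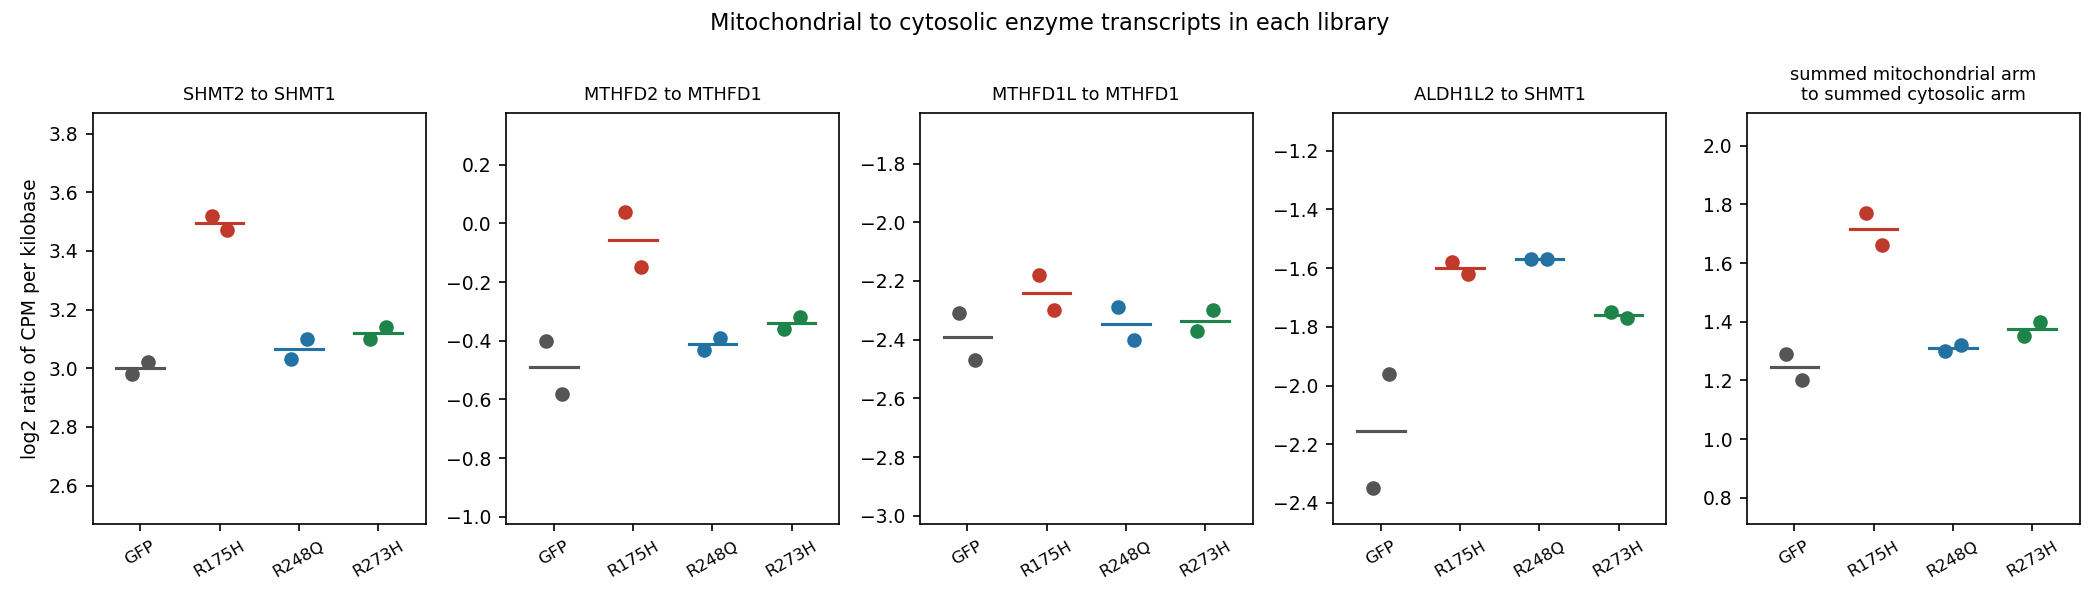
Log2 ratio of mitochondrial to cytosolic enzyme levels per kilobase (vertical axes of equal span, which do not start at 0) in each library, with bars at the mean of 2. For SHMT2 to SHMT1 the R175H libraries sit at 3.52 and 3.47 and all others at or below 3.14, while for ALDH1L2 to SHMT1 the R175H and R248Q libraries lie together between -1.62 and -1.57.

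Around these enzymes, 52 genes of folate, serine, glycine and methionine metabolism were considered and 40 were tested. Against GFP 6 rose and 1 fell with R175H, 2 rose with R248Q and 1 rose with R273H, the rest not passing the test. Over all tested genes 6.39% rose and 4.59% fell with R175H, 4.88% rose with R248Q and 0.757% rose with R273H, so the 2 of 40 with R248Q and the 1 of 40 with R273H are near the background. The changes fell in 2 lists, folate and serine transport (4 of 13 rose with R175H) and the methionine cycle with transsulfuration (2 of 8 rose and 1 fell). Not 1 gene was called in any comparison with GFP among 6 genes of folate reduction and storage such as FPGS, 4 that use folate for synthesis such as TYMS, 2 other folate enzymes, and 7 of glycine and serine breakdown such as GLDC. DESeq2 and limma-voom also called 0 of these 19 genes with each mutant. By edgeR, 2 of them had an unadjusted p below 0.05 with R175H, 1 with R248Q and 0 with R273H. The 2 with R175H were GGH, at -0.20 (adjusted p = 0.13), and the folate enzyme MTHFD2L, at -0.59 (adjusted p = 0.084). Over all tested genes 11.0% were called with R175H, 6.32% with R248Q and 1.01% with R273H, so few calls among 19 genes would match the background, and nothing is read from the 0.

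These counts depended on the GFP libraries. A fit without 1 of the GFP libraries takes its spread from the mutants alone, so the calls it adds are not read as changes. Without GFP replicate 2 the values of GGH, which trims folate polyglutamates, were -0.30, -0.31 and -0.22 for R175H, R248Q and R273H. With both GFP libraries they were -0.20, -0.21 and -0.12. The values of TYMS, thymidylate synthase, were -0.18, -0.19 and -0.15 without that library and -0.10, -0.12 and -0.08 with both. With both GFP libraries neither was called. In the fit without GFP replicate 2, SLC1A4, SLC1A5, SLC38A1, SLC38A2, MTR and CTH had values of 0.15 to 0.45 with R273H. With both GFP libraries their values were 0.16 to 0.40. These genes were named after their values were seen.

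Carriers of serine, glycine and small neutral amino acids were among those that rose with R175H. Of the 13 tested transport genes, 8 had a positive value with R175H. SFXN1 was among those below GFP, at -0.18 (95% interval -0.31 to -0.05, adjusted p = 0.068). Both of its R175H libraries lay below both GFP libraries. SLC1A4, a serine and alanine exchanger, had a mean of 68.7 CPM with R175H against 43.2 CPM with GFP, a rise of 0.66 ± 0.09 (SE, adjusted p = 2.1e-04). SLC6A9, the glycine transporter GLYT1, rose by 0.56 ± 0.08 with R175H (adjusted p = 2.3e-04) and by 0.38 ± 0.07 with R273H (adjusted p = 0.021). SLC38A2, a sodium-coupled neutral amino acid carrier, rose by 0.38 ± 0.06 with R175H (adjusted p = 0.0012). Its relative SLC38A1 rose by 0.31 ± 0.08 with R175H (adjusted p = 0.019) and by 0.37 ± 0.08 with R248Q (adjusted p = 0.0086). Of these, SLC1A4 and SLC6A9 were lower with R248Q than with R175H, with differences of -0.52 ± 0.09 (adjusted p = 0.0015) and -0.31 ± 0.07 (adjusted p = 0.016). The SLC38A1 transcript has 8066 bases. With the length trend removed its rises were 0.18 with R175H (adjusted p = 0.0087) and 0.16 with R248Q (adjusted p = 0.032), and without GFP replicate 1 they were 0.17 and 0.23. With both changes together the R248Q value was 0.12 and was not called (adjusted p = 0.12). With only the GFP and R175H libraries in the fit, the R175H call was lost (adjusted p = 0.09). Leaving out single libraries ended some calls: SLC38A1 with R175H without either R175H library (adjusted p between 0.098 and 0.15) and with R248Q without either R248Q library (0.095 and 0.1). SLC6A9 with R273H was lost without any 1 of the 6 mutant libraries (adjusted p between 0.055 and 0.34), and its R248Q to R175H difference without any 1 of their 4 libraries (0.12 to 0.2).

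CTH, which makes cysteine from cystathionine, was read at 19.6 and 19.0 CPM with GFP and at 37.8 and 35.1 CPM with R175H. Its rise of 0.91 ± 0.10 (SE, adjusted p = 1.8e-05) was the largest among the 40 tested. CTH was lower with R248Q than with R175H (difference -0.65 ± 0.09, adjusted p = 2.9e-04) and lower with R273H than with R175H (-0.51 ± 0.09, adjusted p = 0.0034). The last call was lost without R175H replicate 1 or either R273H library (adjusted p between 0.051 and 0.066). MTR, methionine synthase, which takes its methyl group from folate, rose by 0.51 ± 0.08 with R175H (adjusted p = 5.5e-04) and 0.56 ± 0.08 with R248Q (adjusted p = 2.7e-04). Its transcript has 10529 bases, and with the length trend removed the rises were 0.32 (adjusted p = 4.7e-04) and 0.23 (adjusted p = 0.012). MAT2A, which makes S-adenosylmethionine from methionine, fell with R175H, with a change of -0.32 ± 0.05 (adjusted p = 0.001).

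**Figure D5:**
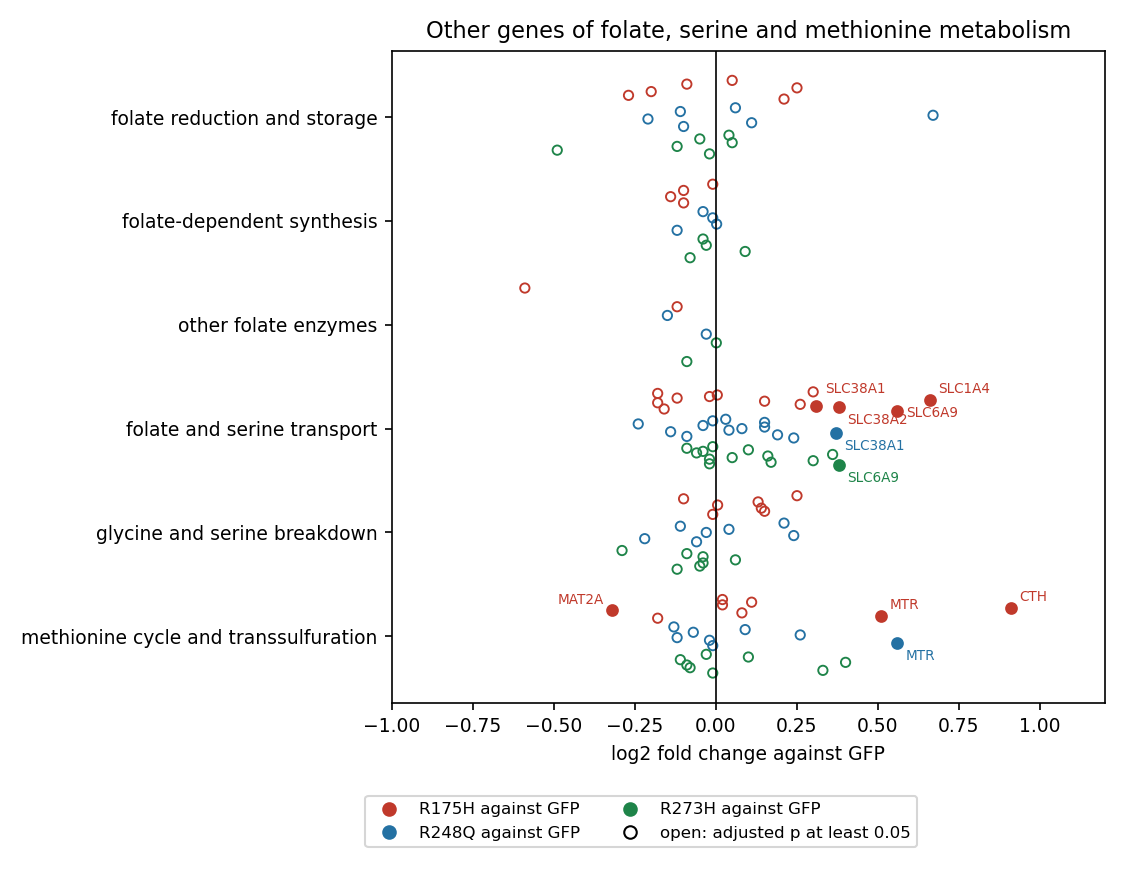
Log2 fold change against GFP (horizontal axis) of the other tested genes, 1 row per list, with filled and named points where the adjusted p is below 0.05. Values run from -0.59 to 0.91, and the filled points are in the rows for transport and for the methionine cycle with transsulfuration.

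The 4 regulators listed were read by level. ATF4 had means of 551 CPM with GFP, 584 CPM with R175H, 562 CPM with R248Q and 614 CPM with R273H. Its changes of 0.09, 0.03 and 0.16 did not pass the test (adjusted p = 0.49, 0.85 and 0.38), and its libraries overlapped those of GFP in each case. MYC rose with R175H by 0.24 ± 0.05 (SE, adjusted p = 0.0071), from a mean of 465 to 550.5 CPM, and differed from GFP by 0.08 with R248Q (adjusted p = 0.37) and 0.19 with R273H (adjusted p = 0.12). NFE2L2 and HIF1A differed from GFP by 0.06 or less with each mutant and were not called. These are transcript levels, and the activity of the factors was not measured.

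Candidates for likeness to a member were tested genes, other than the members, with a mean CPM of at least 10. Symbols that held a hyphen or orf, or began with LOC, LINC, FLJ, KIAA, FAM or MIR and a digit, were passed over. Genes whose log2 CPM followed a member most closely were taken by Pearson's r over the 8 libraries among these 9116 candidates, as a description of libraries that share their groups. For PHGDH they were PCK2 (r = 0.988), ASNS (0.979) and GARS (0.979), which encode mitochondrial PEP carboxykinase, asparagine synthetase and glycyl-tRNA synthetase. ASNS rose with R175H by 0.64 ± 0.06 (SE, adjusted p = 7.4e-06) and PCK2 by 0.76 ± 0.07 (adjusted p = 3.0e-06), both more than PHGDH itself. For SHMT2 they were INSIG1 (0.997), TSC22D3 (0.993) and DDIT4 (0.992), of which DDIT4 was read at 505 and 513 CPM with GFP and 1383 and 1392 CPM with R175H. For SHMT1, whose range was small, SBDS (0.944), GRHPR (0.926) and DDOST (0.912) came first, and none of these was called against GFP. For ALDH1L2 the nearest were LRBA (0.991), UBE3A (0.985) and PTPRG (0.984), with transcripts of 10129, 9131 and 9021 bases; whether length accounts for this likeness was not tested.

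Several members have near copies or neighbours that share sequence. Processed pseudogenes of PSAT1, SHMT1, MTHFD1 and MTHFD2 and a copy of PSPH are in GENCODE 29, and how reads with several matches were counted was not given in the sources used here. MTHFD2P1, the only one of these in the table, had at most 1 count in any library. On the opposite strand lie SMCR8 (beside SHMT1), ZBTB25 (MTHFD1), SLC4A5 (MTHFD2) and C12orf45 (ALDH1L2). None of these 4 was called against GFP, and their means with GFP were 43.5, 4.72, 15.5 and 18.0 CPM, below the level of the member they overlap.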

How the data were processed

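mRNA libraries from 8 samples of HGC27 cells were prepared by the authors with a Kapa mRNA kit, per the labels. Reads were processed with bcl2fastq and STAR 2.5 on hg19, per the submitters' processing notes. The values deposited were whole-number read counts for each gene symbol. How genes were counted, on which annotation and strand, was not given in the sources used here.

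The counts were fitted in R 4.3.3 with edgeR 4.0.16: filterByExpr (minimum count 10, minimum total 15; 13213 genes, 99.9% of counts), TMM factors from 0.989 to 1.01, and a quasi-likelihood model with 1 mean per group over all 8 libraries (4 residual degrees of freedom). The 6 comparisons were each mutant against GFP and each pair of mutants, with Benjamini-Hochberg adjustment over all genes tested. Lengths and overlaps came from GENCODE 29 by symbol (93.3% of tested genes had a length).

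The members, lists, tests and alternatives were chosen with earlier results of these data known. Named were all members, called genes of the surrounding lists (up to 4 a list by p), the regulators, and the 3 genes most alike to each of 4 members. Deviations of same-numbered libraries correlated between -0.09 and 0.05, so numbers were not used to pair libraries. As alternatives, the fit was repeated with limma-voom 3.58.1 and DESeq2 1.42.0, with a replicate block, with only the groups compared, with scaling by DESeq2's factors or by library size alone, with no filter or a mean CPM minimum of 1, with a length trend removed by loess (span 0.3, with and without GFP replicate 1), and with each library left out. The shorter transcripts of MTHFD2, PHGDH and PSPH were chosen after seeing the data. On simulated data of 13213 genes for R175H against GFP, with 200 changed, 99% of 2-fold and 83% of 1.5-fold changes were recovered, with 6 of 188 calls false. The simulation gave every group the same variation of 4.5% between libraries, without the wider spread of GFP. All called members changed less than 1.5-fold against GFP, so these rates do not cover them. Results for 3 genes are not reported here.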

Additional observations from a re-analysis of the deposited data

Results flagged for a closer look

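PHGDH, SHMT2 and MTHFD2 passed 5 direct tests of a difference between mutants, of which 1 passed in all 18 alternatives, that of SHMT2 between R248Q and R175H. Groups of 2 libraries are too small to test for a library far from its group. PHGDH was lower with R248Q than with R175H with a difference of -0.23 ± 0.05 on the log2 scale (SE, edgeR adjusted p = 0.013), with means of 760.2 and 889.5 CPM, a call lost without any 1 of those 4 libraries (adjusted p between 0.071 and 0.22). SHMT2 was lower with R248Q than with R175H with a difference of -0.45 ± 0.05 (adjusted p = 2.3e-05), with means of 706 and 967 CPM. MTHFD2 was lower with R248Q than with R175H with a difference of -0.32 ± 0.06 (adjusted p = 0.0019), with means of 456 and 569 CPM, a call lost without R175H replicate 1 or R248Q replicate 1 (adjusted p between 0.05 and 0.084). SHMT2 was also lower with R273H than with R175H, with a difference of -0.33 ± 0.05 (adjusted p = 8.4e-04), with a mean of 769.7 CPM for R273H, a call lost without R273H replicate 1 (adjusted p = 0.061). MTHFD2 was lower with R273H than with R175H with a difference of -0.22 ± 0.06 (adjusted p = 0.037), with a mean of 489.5 CPM for R273H. That call was lost with DESeq2 (adjusted p = 0.062), with the replicate block (adjusted p = 0.084) and without any 1 of the 6 mutant libraries (adjusted p between 0.12 and 0.32).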

How the results depend on the processing

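Under all 18 alternatives ALDH1L2 rose with R175H (0.38 to 0.72) and R248Q (0.30 to 0.72), PSAT1 (0.28 to 0.39), SHMT2 (0.48 to 0.52) and MTHFD2 (0.36 to 0.47) rose with R175H, and SHMT2 was lower with R248Q than with R175H (-0.46 to -0.42). PHGDH lost its rise with R175H when only the groups compared were fitted (adjusted p = 0.064), which left 4 members in place of 5. Members that rose with R248Q numbered 1, and 2 with library size alone, with no filter or with the length trend removed, 4 with the trend removed and without GFP replicate 1, and 1 to 3 with single libraries left out. Members that rose with R273H numbered 2, and 5 with no filter, 4 with the length trend removed, 5 with the trend removed and without GFP replicate 1, 0 with only the groups compared, and 0 to 5 with single libraries left out. With the replicate block, which pairs libraries by number although the numbers do not pair them, R273H had 0: PSAT1 had an adjusted p of 0.053 and ALDH1L2 one of 0.058. PSAT1 was also called lower with R248Q than with R175H with no filter, with the length trend removed and with only the groups compared. Those fits gave 4 members in place of 3. Members lower with R248Q than with R175H numbered 3, and 1 to 4 with single libraries left out. Members lower with R273H than with R175H numbered 2, and 1 with DESeq2 (MTHFD2, adjusted p = 0.062), 1 with the replicate block (adjusted p = 0.084), and 0 to 3 with single libraries left out. Members higher with R273H than with R248Q numbered 0, and 4 with only the groups compared, 3 with the trend removed and without GFP replicate 1, and 0 to 3 with single libraries left out. The cause of these changes was not tested. A fit without a library has fewer degrees of freedom and leaves its group with a single library, which adds nothing to the estimate of spread. Without a GFP library that estimate comes from the mutants alone, so calls gained there are not read as changes. Values near 0 changed sign in 28 cases, none of them called. SHMT1 with R175H was -0.01 with library size alone and -0.0005 with only the groups compared. SHMT1 with R248Q was 0.03 with the length trend removed and 0.05 with the trend removed and without GFP replicate 1, and against R175H it was 0.01 and 0.004. ALDH1L2 with R248Q against R175H was -0.07 with the length trend removed, with or without GFP replicate 1 and -0.001 with only the groups compared. Leaving out single libraries turned the sign of some uncalled values, here with their range over the 8 libraries. For R175H against GFP, PSPH ran from -0.002 to 0.23, SHMT1 from -0.03 to 0.05 and MTHFD1 from -0.07 to 0.04. For R248Q against GFP, PSPH ran from -0.02 to 0.08, SHMT1 from -0.05 to 0.02 and MTHFD1 from -0.02 to 0.05. For R248Q against R175H, PSPH ran from -0.20 to 0.03, SHMT1 from -0.05 to 0.01, MTHFD1 from -0.03 to 0.09 and ALDH1L2 from -0.02 to 0.04. For R273H against R175H, PSPH ran from -0.12 to 0.11 and MTHFD1L from -0.06 to 0.01, and for R273H against R248Q MTHFD1L ran from -0.01 to 0.10. Over all genes the counts moved more than those of the members: 309 to 1846 rose and 154 to 1546 fell with R175H (844 and 607 as reported), 198 to 1839 rose and 27 to 1608 fell with R248Q (645 and 190), and 1 to 1327 rose and 5 to 931 fell with R273H (100 and 33). The surrounding genes that rose numbered 5 to 9 with R175H (6), 1 to 4 with R248Q (2) and 0 to 7 with R273H (1), and those that fell 1 to 4 (1), 0 to 3 (0) and 0 to 2 (0). Each of these upper limits for all genes, and for the surrounding genes that fell, came without GFP replicate 2. With 6800463 to 11788035 counts per library, a share of reads in PSPH, the least counted member, rests on 456 to 729 counts.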
